A study of Mus musculus with 13 samples.

Results

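Hif3a, a member of the hypoxia-inducible factor (HIF) family, was described together with 8 genes of the glucocorticoid response: the receptor gene Nr3c1 and Fkbp5, Sgk1, Tsc22d3, Zbtb16, Per1, Cdkn1a and Ddit4. These 9 genes were picked by symbol from the 34745 genes of the deposited table. Earlier results of these data, those of the higher dose among them, were already known. Their values at that dose are therefore given as a description, without p-values, and nothing is concluded from whether they were called. All 9 passed the filter on low counts.

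Bulk RNA of the olfactory bulb of wild type C57BL/6 mice, aged 7 to 8 weeks per the labels, was sequenced in 13 libraries. A 1st set held 3 libraries of mice given PM2.5, the fine particles of polluted air, at 3 mg/kg and 4 control libraries. A 2nd set held 3 libraries of mice given PM2.5 at 10 mg/kg and 3 control libraries. Both doses are labelled "/3 day". The labels give the control treatment as none and do not say what this interval means, by which route PM2.5 was given, what separates the sets or whether replicates are single animals. P-values here measure the spread between these libraries, which may be technical.

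Total counts per library were 14.3 to 14.7 M at 3 mg/kg and 13 to 14.1 M in the controls of that set. They were 20.2 to 25.5 M at 10 mg/kg and 15.4 to 27 M in the controls. The series is described as male mice, but the sets differed in sex-linked transcripts. Xist, which coats the inactive X chromosome, had between 0.0992 and 0.555 CPM (counts scaled to the library's total, per M) in the 2nd set's 6 libraries, against 2245 to 2712 CPM in the 7 of the 1st. Summed CPM of 4 Y-linked genes ran from 177 to 230 in the 2nd set and from 0 to 0.21 in the 1st. Dose, set and sex of the libraries cannot be told apart, so each dose was compared only with the controls of its own set. All 10 markers of bulb neurons were detected in every group, with summed levels of 4755 to 4941 CPM at 3 mg/kg, against 4385 to 4720 CPM in the controls, and of 4860 to 5031 CPM at 10 mg/kg, against 5199 to 5986 CPM in the controls. The sums did not overlap in either set, higher than in controls at the lower dose and lower at the higher dose, with 0 of 10 markers past the test at either. In bulk tissue, fewer cells of a type and less RNA per cell cannot be told apart.

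Corticosterone, the main glucocorticoid of mice, binds the glucocorticoid receptor in the cytosol, where the receptor is held by HSP90 and its cochaperones. The bound receptor enters the nucleus and attaches as a dimer to response elements made of a pair of inverted half-sites, from which it raises transcription of its target genes. In brain these targets include a feedback inhibitor of the receptor, a kinase that acts on ion transport, anti-inflammatory and growth-limiting factors and a clock gene. HIF proteins are the transcription factors of the response to low oxygen, and short forms of HIF3A can inhibit the others.

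Windows from 250 bases before to 50 bases after annotated gene starts (RefSeq, build GRCm38.p6) were searched on both strands for motifs of fixed letters. These were a full glucocorticoid response element, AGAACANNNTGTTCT, and its half-site AGAACA, which lies inside it. Further motifs were the E-box CACGTG and ACGTG, the core of the hypoxia response element, which lies inside the E-box. The cAMP response element TGACGTCA and its half-site TGACG were searched too. Windows were at hand for 7 of the 9 genes, 16 windows in all. Shown are the single window of Hif3a, the gene with the largest difference at both doses, that of Fkbp5, and 1 of the 6 windows of Sgk1, which held the full element. Only the 250 bases before the start are printed, and capitals mark every motif match, read 5′ to 3′ along the gene's strand.
Hif3a, chr7:17062428-17062677, minus strand: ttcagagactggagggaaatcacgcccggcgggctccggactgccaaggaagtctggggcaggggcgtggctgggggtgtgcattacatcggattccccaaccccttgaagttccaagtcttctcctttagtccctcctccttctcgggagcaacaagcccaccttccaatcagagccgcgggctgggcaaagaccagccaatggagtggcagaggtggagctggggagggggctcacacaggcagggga
Fkbp5, chr17:28486150-28486399, minus strand: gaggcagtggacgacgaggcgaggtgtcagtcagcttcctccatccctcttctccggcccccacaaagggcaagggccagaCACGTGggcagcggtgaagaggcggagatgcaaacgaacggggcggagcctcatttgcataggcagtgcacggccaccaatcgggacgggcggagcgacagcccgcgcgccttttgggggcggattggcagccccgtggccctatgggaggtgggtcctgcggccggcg
Sgk1, chr10:21993640-21993889, plus strand: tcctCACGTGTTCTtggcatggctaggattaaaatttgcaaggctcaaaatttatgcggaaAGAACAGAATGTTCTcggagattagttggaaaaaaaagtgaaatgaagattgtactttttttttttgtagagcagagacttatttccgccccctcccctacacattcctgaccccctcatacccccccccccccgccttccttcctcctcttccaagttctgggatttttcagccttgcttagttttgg
No searched motif was found in the Hif3a window, which says only that these letters are not in it. The Fkbp5 window held 1 E-box. In the Sgk1 window the full element began at base -189 from the start, and an E-box that overlaps a further half-site lay farther upstream. The full element was present in 3 of 32851 such windows of all genes (0.00913%), and among the 16 windows of these genes in that of Sgk1 alone. Half-sites were in 4 of the 16 windows, against 19% of all windows, E-boxes in 3 (7.15%), ACGTG in 4 (19.6%) and TGACG in 4 (20.8%), and TGACGTCA in 0 (1.79%). These matches are descriptions of letters and not of receptor binding, and the search covered no distal elements.

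None of the 9 genes passed edgeR's quasi-likelihood test at 3 mg/kg with adjustment over all 17467 genes, and neither did any other gene (0% of all genes), while 429 genes (2.46%) had an unadjusted p below 0.05. DESeq2's Wald test called 19 genes and limma on log2(FPKM + 1) called 2, with 0 of the 9 among either. A separate edgeR fit within the set called 9 genes, 1 of them Hif3a. In Hif3a and Fkbp5 every exposed library stood above every control (2 of 9 genes, against 3.71% of all genes), and in 0 of 9 every exposed library stood below (2.91%). The fitted change was positive for 6 and negative for 3, with a median log2 fold change of 0.09, against 0.00 over all genes. At 10 mg/kg 1 of the 9 was called, Hif3a (0.641% of all genes were called, 0.521% as higher and 0.120% as lower). A separate fit of that set called 0 of the 9. Exposed and control libraries did not overlap in Hif3a and Sgk1 (6.08% of all genes were higher without overlap and 4.36% lower). Changes were positive for 7 and negative for 2, with a median of 0.29, against -0.01 over all genes. Nothing is read from the counts at 10 mg/kg, since these values chose the genes. Counts and p-values at 3 mg/kg may not be independent of that choice either.

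**Figure D1:**
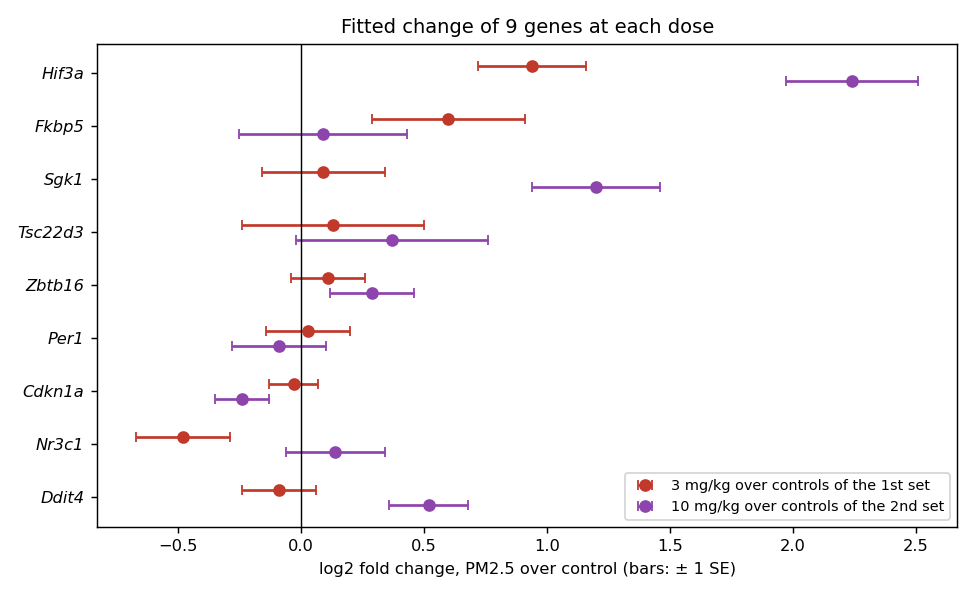
Log2 fold change of each gene, PM2.5 over controls of the same set, from edgeR, at 3 mg/kg and at 10 mg/kg; bars are 1 SE to each side. Hif3a lies farthest to the right at both doses, at 0.94 and 2.24, and Nr3c1 farthest to the left at the lower dose, at -0.48.

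Nr3c1 encodes the glucocorticoid receptor itself (mm10 chromosome 18, 39410545 to 39491301). It had 51.1, 47.0 and 51.0 CPM in the 3 mg/kg libraries, against 82.3, 49.7, 77.2 and 67.7 CPM in the controls of the 1st set. All 3 exposed libraries lay below the control mean, but control replicate 2 stood among them. The log2 fold change was -0.48 (SE 0.19, 95% interval -0.86 to -0.10, edgeR adjusted p = 1, unadjusted p = 0.0285). In the 2nd set the 10 mg/kg libraries had 63.7, 73.6 and 65.9 CPM and the controls 85.6, 51.9 and 47.7 CPM. Control replicate 1 was the highest of the 6 and the other two controls the lowest, so the groups overlapped (log2 fold change 0.14, SE 0.20). Leaving out that control gave 0.46, and leaving out control replicate 3 gave -0.02.

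Around the receptor, 0 of 20 tested genes of its machinery (HSP90 chaperones, cochaperones, coactivators, corticosteroid-metabolising enzymes and the steroid-exporting transporter) passed at either dose, with medians of 0.05 at 3 mg/kg and 0.09 at 10 mg/kg, against 0.00 and -0.01 over all genes. Nr3c2, the mineralocorticoid receptor gene, averaged 53.2 ± 2.18 CPM at 3 mg/kg and 46.0 ± 4 CPM in its controls (SD, n = 3 and 4; log2 fold change 0.21, edgeR adjusted p = 1). Abcb1a, the exporter of the blood-brain barrier that also carries glucocorticoids, averaged 34.1 ± 6.37 CPM at 10 mg/kg and 27.1 ± 7.73 CPM in its controls (SD, n = 3 each; 0.33, edgeR adjusted p = 0.574). The coactivator Med1 at 3 mg/kg (0.11) and the coactivator Ncoa2 at 10 mg/kg (0.18) did not pass either. Over all genes 0% passed at 3 mg/kg and 0.641% at 10 mg/kg. Counts of 0 here and in the short lists below are therefore not read as absence of a response.

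Fkbp5 encodes FKBP51, an HSP90 cochaperone that lowers the receptor's affinity for hormone and is itself raised by the receptor, closing a feedback loop (chromosome 17, 28399095 to 28517524). It had 75.8, 37.3 and 37.2 CPM at 3 mg/kg, against 33.5, 35.9, 33.1 and 30.0 CPM in the controls. Exposed replicate 1 stood far above every other library of its set, and the other two lay just above the highest control. The log2 fold change was 0.60 (SE 0.31, 95% interval -0.02 to 1.21, edgeR adjusted p = 1), and it was 0.17 without exposed replicate 1. The 10 mg/kg libraries had Fkbp5 at 18.3, 42.8 and 48.4 CPM, against 30.5, 36.8 and 35.5 CPM in the controls. Replicate 1 was the lowest of the 6 libraries and replicates 2 and 3 the highest, so the fitted change was near 0 (log2 fold change 0.09, SE 0.34). It was 0.41 without exposed replicate 1 and -0.15 without exposed replicate 3.

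Hif3a (chromosome 7, 17031507 to 17062427) had 16, 13.4 and 14.4 CPM at 3 mg/kg, against 7.03, 6.68, 9.01 and 7.65 CPM in the controls. The lowest exposed library stood well above the highest control. The means were 14.6 ± 1.33 and 7.59 ± 1.03 CPM (SD, n = 3 and 4), a 1.92-fold difference (log2 fold change 0.94, SE 0.22, 95% interval 0.51 to 1.38) that did not pass adjustment over all genes (edgeR adjusted p = 0.500, unadjusted p = 0.000781). Of all alternatives it passed only in a separate fit of the 1st set (edgeR adjusted p = 0.0233). With 1 library left out at a time the log2 fold change stayed between 0.87 and 1.04, and the lowest edgeR adjusted p was 0.352. In the 2nd set Hif3a had 11.8, 5.89 and 8.02 CPM at 10 mg/kg, against 2.04, 1.24 and 2.28 CPM in the controls. These rest on 117 to 238 counts per exposed library and 31 to 37 per control, and again the groups did not overlap. The means of 8.57 ± 3.00 and 1.85 ± 0.547 CPM (SD, n = 3 each) differed 4.72-fold (log2 fold change 2.24, SE 0.27, given without a test).

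The unexposed level of Hif3a differed between the sets. The controls of the 2nd set averaged 1.85 CPM and those of the 1st set 7.59 CPM, a log2 fold change of -2.06 (SE 0.26), with no overlap. This is given without a p-value, since the controls of the 2nd set also enter the comparison at 10 mg/kg that chose the genes. A gene annotated on the opposite strand inside Hif3a, 4833404L02Rik, held 1 to 9 counts in the 10 mg/kg libraries, 0 in their controls, 0 to 2 in the 3 mg/kg libraries and 0 to 3 in their controls. Whether counting used the strand is not given in the sources used here, so the share of opposite-strand reads in Hif3a was not tested.

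**Figure D2:**
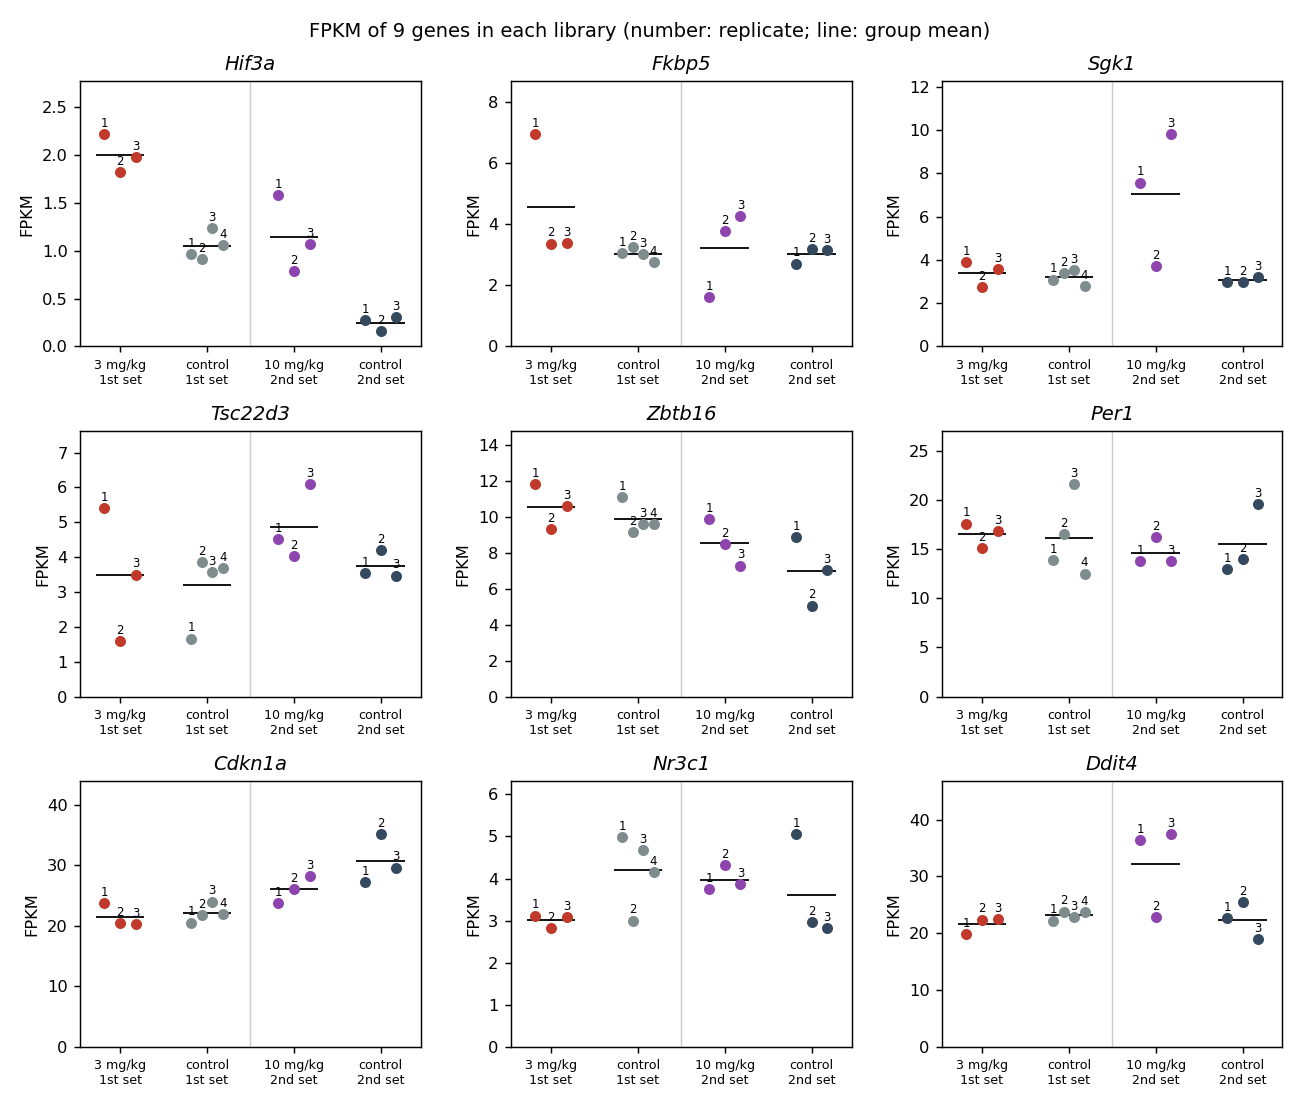
Deposited FPKM of the 9 genes in each of the 13 libraries, 1 panel a gene, with the replicate number beside each point and a line at the group mean; exposed libraries stand left of the controls of their set. Hif3a parts exposed from control libraries in both sets, Sgk1 in the 2nd set only, and Fkbp5 in the 1st set, where replicate 1 at 6.94 FPKM stands far above the rest.

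Sgk1 encodes the serum- and glucocorticoid-regulated kinase, which acts on ion channels and transporters (chromosome 10, 21882184 to 21999903). In the 3 mg/kg libraries it had 39.1, 28 and 36 CPM and in their controls 31.1, 34.3, 35.6 and 27.8 CPM. The groups overlapped, and the log2 fold change was 0.09 (SE 0.25, 95% interval -0.39 to 0.57, edgeR adjusted p = 1). In the 10 mg/kg libraries Sgk1 had 78.7, 38.8 and 102 CPM, against 30.7, 31.8 and 33.2 CPM in the controls. Replicates 1 and 3 were far above the 3 closely spaced controls, and replicate 2 was just above them (log2 fold change 1.20, SE 0.26). The change was 0.90 without replicate 3 and 1.5 without replicate 2.

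Ddit4 encodes REDD1, an inhibitor of the growth-promoting kinase complex mTORC1 that is raised by glucocorticoids and by low oxygen (chromosome 10, 59949675 to 59951770). It had 32.8, 37.6 and 37.5 CPM at 3 mg/kg, against 36.8, 39.8, 37.8 and 39.0 CPM in the controls, with overlap (log2 fold change -0.09, SE 0.15, edgeR adjusted p = 1). The 10 mg/kg libraries held 62.3, 39.0 and 64.2 CPM of Ddit4, against 38.5, 44.8 and 32.1 CPM in the controls. As in Sgk1, replicates 1 and 3 were high and replicate 2 was close to the controls, here among them (log2 fold change 0.52, SE 0.16). Of 12 tested genes of the integrated stress response, which is linked to mTORC1 control, 0 passed at either dose. Of all genes 0% and 0.641% passed, and the medians of the 12 were -0.06 and 0.13. Among them Atf5 at 3 mg/kg had a log2 fold change of -0.53 (edgeR adjusted p = 1), and Ppp1r15a had -0.27 at 3 mg/kg and -0.36 at 10 mg/kg (edgeR adjusted p = 1 and 0.339).

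Tsc22d3 encodes GILZ, an anti-inflammatory leucine zipper protein (X chromosome, 140539528 to 140600659). Its values were 42.7, 12.8 and 27.8 CPM at 3 mg/kg and 13.2, 30.7, 28.4 and 28.9 CPM in the controls. The spread within each group exceeded the difference of their means (log2 fold change 0.13, SE 0.37, edgeR adjusted p = 1), and the change was -0.32 without exposed replicate 1. Tsc22d3 had 36.9, 33.0 and 50 CPM at 10 mg/kg, against 28.9, 35.4 and 28.2 CPM in the controls, with replicate 3 the highest and replicate 2 inside the control range (log2 fold change 0.37, SE 0.39). Zbtb16 encodes the transcriptional repressor PLZF (chromosome 9, 48654311 to 48835945). It had 59.1, 47.1 and 53.4 CPM at 3 mg/kg, against 55.9, 46.2, 48.1 and 47.7 CPM in the controls (log2 fold change 0.11, SE 0.15, edgeR adjusted p = 1). In the 2nd set it had 51.1, 44.1 and 37.9 CPM at 10 mg/kg and 45.8, 26.9 and 36.2 CPM in the controls (0.29, SE 0.17). Both sets overlapped for Zbtb16.

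Per1, a repressor of the circadian clock and a direct target of the receptor, is on chromosome 11 (69095217 to 69109960). It had 142, 124 and 137 CPM at 3 mg/kg, against 113, 135, 176 and 101 CPM in the controls (log2 fold change 0.03, SE 0.17, 95% interval -0.31 to 0.37, edgeR adjusted p = 1). In the 2nd set it had 116, 136 and 116 CPM at 10 mg/kg, against 109, 121 and 163 CPM in the controls (-0.09, SE 0.19, and 0.09 without control replicate 3). Controls spread more widely than exposed libraries in both sets and enclosed them. Of 16 other clock genes 0 passed at 3 mg/kg (0% of all genes) and 1 rose at 10 mg/kg (0.521%). The medians were 0.02 and 0.17. That gene was Nr1d1, which encodes the clock repressor REV-ERBα, with 106 ± 7.22 CPM at 10 mg/kg and 73.0 ± 7.18 CPM in the controls (SD, n = 3 each; log2 fold change 0.54, edgeR adjusted p = 0.0152). Its call was lost without control replicate 3 (edgeR adjusted p = 0.0680) or exposed replicate 2 (edgeR adjusted p = 0.0501) of the 2nd set, and in a separate fit of that set (edgeR adjusted p = 0.278).

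Cdkn1a encodes p21, an inhibitor of cyclin-dependent kinases raised by p53 and by glucocorticoids (chromosome 17, 29090979 to 29100722). Exposed libraries at 3 mg/kg had 71.5, 62.4 and 61.5 CPM, against 62.1, 66.3, 72.8 and 65.6 CPM in the controls (log2 fold change -0.03, SE 0.10, 95% interval -0.24 to 0.17, edgeR adjusted p = 1). The groups overlapped almost wholly. In the 2nd set it had 74.5, 81.3 and 88.4 CPM at 10 mg/kg and 84.5, 112 and 91.8 CPM in the controls. All 3 exposed libraries were below the control mean, and only replicate 3 reached into the control range (-0.24, SE 0.11). Of 14 tested p53 target genes 0 passed at 3 mg/kg, with a median of -0.09. Of the same genes 0 rose and 1 fell at 10 mg/kg (0.521% and 0.120% of all genes), with a median of 0.13. The 1 that fell was the growth-arrest gene Btg2 (log2 fold change -1.18, edgeR adjusted p = 0.0344). Btg2 is also an immediate early gene, and its call was lost in 7 of 13 leave-outs of 1 library and in a separate fit of the set (edgeR adjusted p = 0.179).

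**Figure D3:**
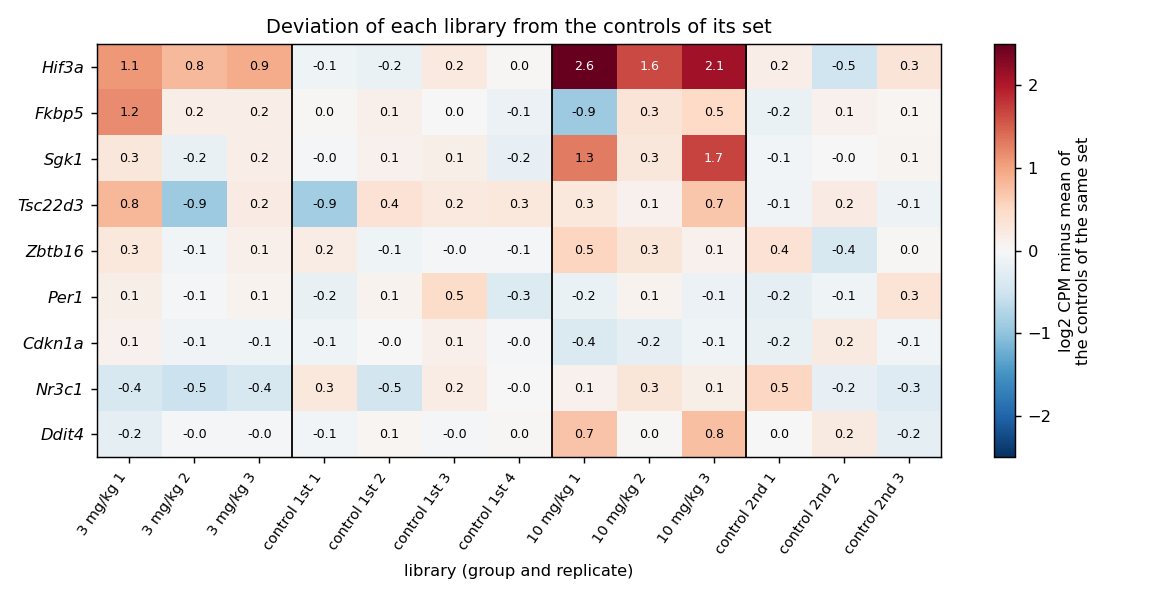
Log2 CPM of each gene in each library minus the mean of the controls of the same set; red is above and blue below that mean, and vertical lines part the groups, exposed left of their controls. The Hif3a row is red in all 6 exposed libraries, while the Fkbp5, Sgk1, Tsc22d3 and Ddit4 rows change from library to library.

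The exposed libraries of a group did not show the same genes. In the 10 mg/kg group, replicate 1 stood above all its controls for Hif3a, Sgk1, Tsc22d3, Zbtb16 and Ddit4 and below all of them for Fkbp5 and Cdkn1a. Replicate 2 was above for Hif3a, Fkbp5 and Sgk1 and below for Cdkn1a, and replicate 3 was above for Hif3a, Fkbp5, Sgk1, Tsc22d3 and Ddit4 and below for none. Hif3a and Sgk1 were the genes that all 3 had in common. In the 3 mg/kg group, replicate 1 was above all controls for Hif3a, Fkbp5, Sgk1, Tsc22d3 and Zbtb16 and below for Ddit4. Replicate 2 was above for Hif3a and Fkbp5 and below for Tsc22d3 and Nr3c1, and replicate 3 was above for Hif3a, Fkbp5 and Sgk1 and below for Cdkn1a.

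Whether the genes moved together among libraries of the same group was examined with log2 CPM after subtraction of the group mean, over all 13 libraries and 36 pairs. Of these pairs 20 had a positive correlation, the median Pearson r was 0.08, and 0 had an adjusted p below 0.05 (exact permutation within groups, two-sided, Benjamini-Hochberg over the 36 pairs). Fkbp5 and Cdkn1a had the smallest p, with r = 0.63 (exact permutation p = 0.00714, adjusted 0.257), Spearman's rho = 0.74 (exact permutation p = 0.0176, adjusted 0.575) and r = 0.52 without the 2 libraries farthest out in Fkbp5. The largest r in size was that of Zbtb16 and Cdkn1a, at -0.70 (exact permutation p = 0.0783, adjusted 0.564; rho = -0.64, exact permutation p = 0.0733, adjusted 0.575), and it was -0.35 without control replicates 1 and 2 of the 2nd set. For Sgk1 and Ddit4, r was 0.67 (exact permutation p = 0.281, adjusted 0.821; rho = 0.35, exact permutation p = 0.410, adjusted 0.738), and it was -0.07 without exposed replicates 2 and 3 of the 2nd set, on which it rests. Hif3a with Sgk1 gave r = 0.50 (exact permutation p = 0.403, adjusted 0.821) and rho = 0.43 (exact permutation p = 0.220, adjusted 0.608), and r = 0.58 without the 2 libraries farthest out in Hif3a. Hif3a with Fkbp5 gave r = -0.42 (exact permutation p = 0.436, adjusted 0.821) and rho = -0.39 (exact permutation p = 0.256, adjusted 0.615), and -0.11 without those libraries.

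**Figure D4:**
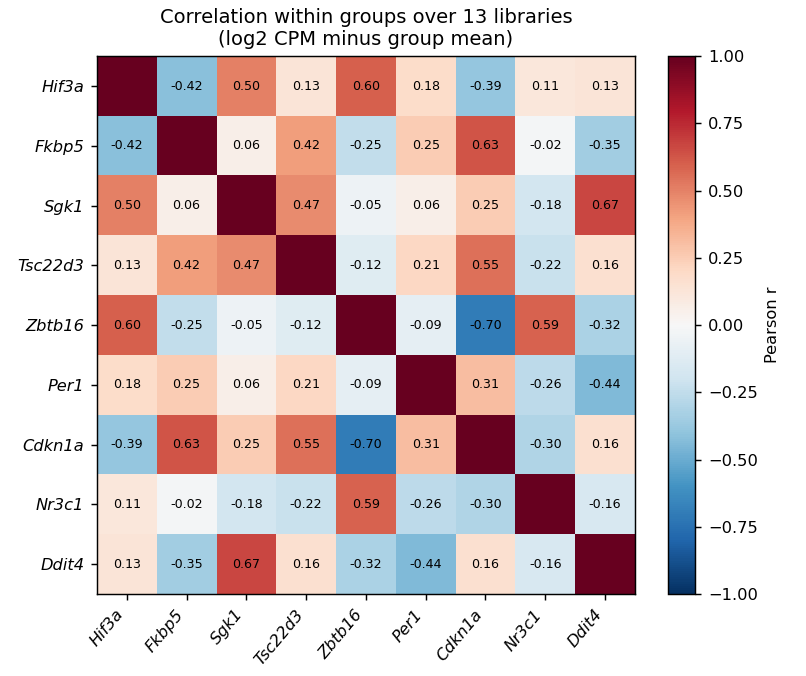
Pearson r of each pair of the 9 genes over 13 libraries, computed on log2 CPM after subtraction of the group mean. Positive and negative values are mixed, with a median of 0.08 over the 36 pairs.

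By expression per length, as deposited FPKM, the unexposed bulb ranked Hif3a last in both sets. In the controls of the 2nd set the means were 30.6 FPKM for Cdkn1a, 22.3 for Ddit4, 15.5 for Per1, 6.99 for Zbtb16, 3.75 for Tsc22d3, 3.62 for Nr3c1, 3.05 for Sgk1, 3.01 for Fkbp5 and 0.247 for Hif3a. In those of the 1st set they were 23.1 FPKM for Ddit4, 22.1 for Cdkn1a, 16.1 for Per1, 9.86 for Zbtb16, 4.21 for Nr3c1, 3.20 for Sgk1, 3.19 for Tsc22d3, 3.02 for Fkbp5 and 1.05 for Hif3a. Neighbours from Nr3c1 or Tsc22d3 down to Fkbp5 overlapped over libraries in both sets and cannot be ordered. Nor can Ddit4 and Cdkn1a or Cdkn1a and Per1 in the 1st set, or Ddit4 and Per1 in the 2nd. Hif3a stood apart below Fkbp5 in all 4 groups, at 2.01 FPKM at 3 mg/kg and 1.14 FPKM at 10 mg/kg. Sgk1, at 7.03 FPKM on average at 10 mg/kg, followed Zbtb16 in the order, and its range overlapped that of Zbtb16, which averaged 8.54 FPKM.

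Between the controls of the 2 sets, 2 of the 9 genes were called, 1 in each direction, where 19.3% of all genes were called, 10.5% as higher and 8.74% as lower in the 2nd set. Libraries of the sets did not overlap in 1 gene that was higher and in 2 that were lower, Hif3a and Zbtb16 (15.8% and 14.6% of all genes). Since these controls also enter the comparison that chose the genes, the counts are not independent of that choice. Besides Hif3a, which was lower, Cdkn1a was higher in the 2nd set, with an average of 96.2 ± 14.4 CPM there, against 66.7 ± 4.47 CPM in the 1st set (SD, n = 3 and 4; log2 fold change 0.53, SE 0.10). Zbtb16 averaged 36.3 CPM in the 2nd set, against 49.5 CPM in the 1st (log2 fold change -0.45). Without control replicate 1 of the 2nd set the value was -0.67 for Zbtb16 and -0.50 for Nr3c1, against -0.17 with it for Nr3c1. Vessel-associated transcripts also differed between these controls. Of 10 mural and meningeal markers 0 were higher and 7 lower in the 2nd set, with summed levels of 201 to 299 CPM there and 355 to 566 CPM in the 1st. Of 10 endothelial markers 0 were higher and 5 lower, with 205 to 279 CPM in the 2nd set and 290 to 332 CPM in the 1st, and no marker of either list was at 0. Abcb1a (log2 fold change -0.93, edgeR adjusted p = 0.00281) and Epas1, which encodes HIF2A (-0.61, edgeR adjusted p = 0.00825), were lower too. The part of these differences in the level of Hif3a was not tested.

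The pattern of Hif3a over the 13 libraries, as log2 CPM minus the mean of the controls of the same set, was compared with that of 13856 genes. The 5 most like it were Ccdc6 (Pearson r = 0.96), Acer2 (0.94), Slco2b1 (0.92), Galnt15 (0.92) and Ifi30 (0.92). These r values describe libraries that share controls and exposure, and genes chosen as the top of a ranking. Acer2 encodes alkaline ceramidase 2 of sphingolipid breakdown. It had 17.8, 15.1 and 13.3 CPM at 3 mg/kg, against 6.05, 8.80, 10.3 and 7.65 CPM in the controls. The 10 mg/kg libraries had 21.3, 18.9 and 13.9 CPM of Acer2, against 3.75, 4.44 and 5.12 CPM in the controls. Exposed and control libraries parted in both sets as they did for Hif3a (log2 fold changes 0.91 and 2.02). Galnt15, a glycosyltransferase gene, averaged 9.11 ± 2.30 CPM at 3 mg/kg and 4.06 ± 0.778 CPM in the controls (SD, n = 3 and 4; log2 fold change 1.17). It averaged 5.80 ± 2.03 CPM at 10 mg/kg and 1.20 ± 0.414 CPM in the controls (SD, n = 3 each; 2.25). Ccdc6, though closest in pattern, had log2 fold changes of 0.09 and 0.27, Slco2b1 of 0.13 and 0.44, and Ifi30 of 0.35 and 1.19, at 3 and 10 mg/kg. Closest to Sgk1 were Plekhf1, Unc5a and Nptxr (r = 0.94 each), and to Ddit4 the heat shock genes Hspa1a (0.93) and Hspa1b (0.92), near-identical copies whose reads cannot be assigned with certainty, and Sst (0.91). Closest to the others were Suox for Fkbp5 (0.90), Tmem37 for Tsc22d3 (0.91), Ssh2 for Zbtb16 (0.89), Nr4a3 for Per1 (0.92), Tusc2 for Cdkn1a (0.94) and Vmn1r206 for Nr3c1 (0.86).

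Beyond these 9 genes, 24 further genes known to respond to glucocorticoids were followed, a list put together with earlier results of these data known. At 3 mg/kg 0 of 24 passed, 17 were positive and 7 negative, and the median log2 fold change was 0.17, against 0.00 over all genes. In 4 of them (Plin4, Map3k6, Lcn2 and Gpd1) every exposed library lay above every control, as in 3.71% of all genes. Summed over the 24, replicates 1, 2 and 3 at 3 mg/kg had 1104, 797 and 866 CPM, against 777 to 873 CPM in the controls. Only replicate 1 thus stood above the controls in this sum. At the higher dose 4 of 24 rose and 0 fell (0.521% and 0.120% of all genes), 21 were positive and 3 negative, and the median was 0.58, against -0.01. Exposed libraries lay above all controls in 15 of the 24 (6.08% of all genes) and below all controls in 2, Dusp1 and Camk1g (4.36%). As the list was not drawn up independently of these data, nothing is read from these counts. The adjusted p-values of its genes are descriptions for the same reason.

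Plin4, a coat protein of lipid droplets, had 7.54, 11.8 and 7.22 CPM at 10 mg/kg, against 0.526, 0.657 and 1.11 CPM in the controls (log2 fold change 3.53, SE 0.46, edgeR adjusted p = 0.00403). The 3 mg/kg libraries had 7.35, 2.29 and 2.30 CPM, against 0.756, 0.704, 0.908 and 1.35 CPM in the controls (2.09, SE 0.44, edgeR adjusted p = 0.436). Replicate 1 of the 3 mg/kg group was the high one, as in Fkbp5. Cebpd, a transcription factor that inflammatory signals also raise, had 11.3, 11.8 and 16 CPM at 10 mg/kg, against 4.34, 6.42 and 2.96 CPM in the controls (1.49, SE 0.26, edgeR adjusted p = 0.0166). Map3k6, a stress-activated kinase, had 5.81, 3.57 and 4.23 CPM at 10 mg/kg, against 1.32, 1.51 and 1.23 CPM in the controls (1.73, SE 0.35, edgeR adjusted p = 0.0372). Plekhf1, a lysosomal adaptor, had 8.58, 4.68 and 11.9 CPM, against 4.08, 3.17 and 2.65 CPM (1.35, SE 0.29, edgeR adjusted p = 0.0475), so that replicate 2 was nearest to the controls, as in Sgk1 and Ddit4. Of these 4 calls, that of Plin4 was lost in 0 of 13 leave-outs of 1 library, Cebpd's in 1 (edgeR adjusted p = 0.0662 without control replicate 3 of the 2nd set), Map3k6's in 8 and Plekhf1's in 11.

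Lcn2, the iron-carrier-binding lipocalin that is also an acute phase gene, had 13.8, 1.18 and 1.83 CPM at 3 mg/kg, against 0.302, 1.06, 0 and 0.142 CPM in the controls. Lcn2 had 6.15, 19.2 and 19.0 CPM at 10 mg/kg, against 0, 0.309 and 0.494 CPM. The groups did not overlap in either set, yet Lcn2 did not pass (edgeR adjusted p = 1 and 0.0772). Sult1a1, a sulfotransferase gene, averaged 11.2 ± 3.02 CPM at 10 mg/kg and 4.55 ± 0.937 CPM in the controls (SD, n = 3 each; log2 fold change 1.28, edgeR adjusted p = 0.0912). Dusp1, a phosphatase of MAP kinases that is also an immediate early gene, averaged 24.6 ± 5.74 CPM at 10 mg/kg and 42.1 ± 10.3 CPM in the controls (SD, n = 3 each; -0.78, edgeR adjusted p = 0.205). Of the immediate early genes all 14 had negative values at both doses. The medians were -0.85 at 3 mg/kg and -1.16 at 10 mg/kg, against 0.00 and -0.01 over all genes. Of the 14, 0 passed at 3 mg/kg (0% of all genes), with Npas4, which neuronal activity raises, at -1.43 (edgeR adjusted p = 0.0737). At 10 mg/kg 3 fell and 0 rose (0.120% and 0.521% of all genes). The 3 that fell were Npas4 (-1.85, edgeR adjusted p = 0.00171, and 0.0635 in the separate fit), Btg2 and Ier2.

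**Figure D5:**
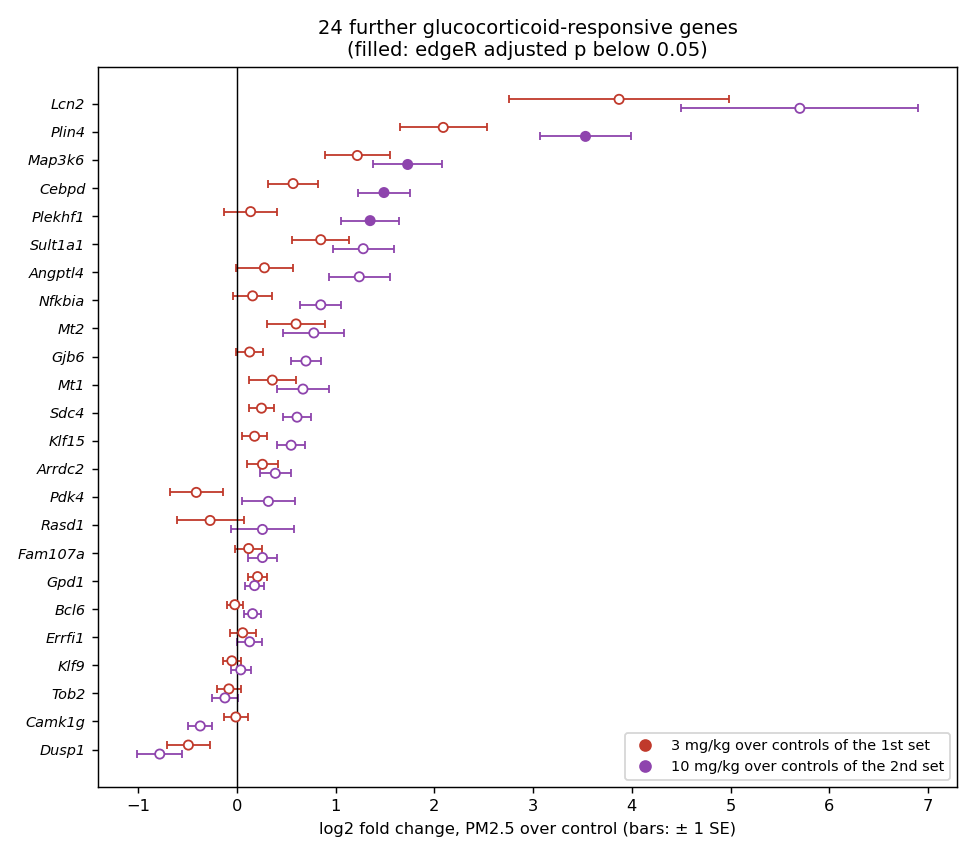
Log2 fold change, PM2.5 over controls of the same set, with 1 SE to each side, of 24 further glucocorticoid-responsive genes at both doses, ordered by the value at 10 mg/kg; filled points passed edgeR's test over all genes. The 4 filled points are Plin4, Map3k6, Cebpd and Plekhf1 at 10 mg/kg, and 0 are filled at 3 mg/kg. The list was put together with earlier results of these data known.

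Partners and targets of HIF proteins were followed because of Hif3a. Of 9 genes of the HIF machinery 0 passed at either dose (0% and 0.641% of all genes), with medians of 0.00 and 0.04. Hif1a averaged 123 ± 8.12 CPM at 10 mg/kg and 118 ± 18.3 CPM in the controls (SD, n = 3 each; log2 fold change 0.06), and Epas1 176 ± 26.7 and 165 ± 39.8 CPM (0.09). Egln3, an oxygen-sensing prolyl hydroxylase raised by HIF, had a log2 fold change of -0.43 (edgeR adjusted p = 0.167) and Arnt2, a dimer partner, 0.31 (edgeR adjusted p = 0.190) at 10 mg/kg. Of 17 tested hypoxia target genes 0 passed at 3 mg/kg (median 0.08). At 10 mg/kg 1 rose and 0 fell (0.521% and 0.120% of all genes, median 0.01). It was Slc2a1, the glucose transporter of the blood-brain barrier, with 120, 115 and 131 CPM, against 73.5, 63.9 and 65.0 CPM in the controls (log2 fold change 0.86, SE 0.13, edgeR adjusted p = 0.00845). Without control replicate 3 of the 2nd set it missed the threshold (edgeR adjusted p = 0.0540), as it did in a separate fit of the set (edgeR adjusted p = 0.0635).

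Marker lists of other cells differed unevenly between the 10 mg/kg group and its controls, where 0.521% of all genes rose and 0.120% fell. Of 8 tested blood markers 1 rose and 0 fell, with summed levels of 125, 221 and 315 CPM at 10 mg/kg and 125, 107 and 102 CPM in the controls, so that replicate 1 equalled the highest control, and Ly6g was at 0 in the controls. Of 10 astrocyte markers 1 rose and 0 fell, with 4397, 4811 and 4393 CPM at 10 mg/kg and 4104, 3487 and 3196 CPM in the controls. Of 10 microglial markers 2 rose and 0 fell, with 574 to 602 CPM at 10 mg/kg and 534 to 572 CPM in the controls. No astrocyte or microglial marker was at 0. Values were positive for 8 of 8 blood, 10 of 10 astrocyte and 8 of 10 microglial markers (medians 1.08, 0.18 and 0.23). The astrocyte and microglial sums did not overlap those of the controls. Markers of neighbouring cortex had 6 of 8 positive values (median log2 fold change 0.49), with 219 to 282 CPM at 10 mg/kg and 178 to 227 CPM in the controls. Choroid plexus markers had 4 of 4 positive (median 0.68), with 5.66 to 9.26 CPM and 3.64 to 6.91 CPM. Mural and meningeal markers had 10 of 10 positive (median 0.22), with 238 to 302 CPM and 201 to 299 CPM, and bulb neuron markers 8 of 10 negative (median -0.18). In these 4 lists 0 markers passed, and in the first 3 the sums overlapped. Endothelial markers (median 0.08) had 6 of 10 positive, oligodendrocyte markers (0.02) 6 of 10 and nasal epithelium markers (-0.09) 2 of 7, and 0 passed. The part of these cell types in the values of the 9 genes was not tested. In the 1st set 0 markers of any of these lists passed. Oligodendrocyte markers had 10 of 10 negative values at 3 mg/kg (median -0.24), with sums of 1257 to 1538 CPM, against 1517 to 1686 CPM in the controls. Nasal epithelium markers had 7 of 7 negative (median -0.53), with 125 to 175 CPM, against 147 to 234 CPM, and cortex markers 7 of 8 negative (median -0.12), with 209 to 235 CPM, against 216 to 245 CPM. Blood markers had 7 of 8 positive (median 0.56), with 93.6 to 124 CPM, against 47.3 to 116 CPM. The sums overlapped in these 4 lists and in astrocytes (3760 to 4090 CPM, against 3786 to 4005 CPM), while those of bulb neurons did not. The part of these shifts in the values of the 9 genes was not tested either.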

How the data were processed

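Olfactory bulb RNA of 13 libraries was used, 1 library per sample. Per the labels' protocols, libraries were made with a stranded total RNA kit. The submitters' processing notes name HISAT2 and the genome build mm10. The counting program and its strand setting were not stated in any source at hand. The authors deposited a raw count and an FPKM value per gene and library, and all value columns were mapped to a sample by name (0 unmapped). FPKM was used as deposited for levels between genes.

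Counts went into 1 model of all 4 groups (13 libraries, 9 residual degrees of freedom) and robust quasi-likelihood tests of edgeR 4.0.16 under R 4.3.3, with TMM scaling and its expression filter by group, with Benjamini-Hochberg adjustment over 17467 genes and a threshold of 0.05. SE is the size of the log2 fold change over the square root of its F statistic, and intervals are 1.96 SE to each side. CPM is the count scaled by the TMM-adjusted library total (per M). Alternatives were DESeq2 1.42.0, limma 3.58.1 on log2(FPKM + 1) and log2(FPKM + 0.1), other filters and size factors, separate fits and each library left out. Total counts per library were 13 to 27 M. Replicates of a group differed beyond sampling noise. Chi-square per gene was 5.79 to 9.53 in the 1st set and 12.9 to 43.5 in the 2nd, whose libraries held more counts. The r of log CPM was 0.983 to 0.986 in the 1st set and 0.970 to 0.985 in the 2nd. The model shares its estimate of the spread over both sets. What this did to the numbers of genes called at each dose was not tested.

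Members and lists were chosen with earlier results of these data known. Named genes are the 9 members, the 4 genes of smallest p at each dose of the 24 further targets, 2 of each other pathway list, the 5 genes most like Hif3a and the 3 most like each other member (mean of at least 1 CPM, no bare gene-model name), and not every one is given. Gpd1, Dusp1, Camk1g, Hif1a and Epas1 were chosen after their values were seen. Gene coordinates are those of the deposited table, and opposite-strand neighbours come from GENCODE M21 (GRCm38). Fkbp5 and Cdkn1a overlap annotated genes on the opposite strand too. Promoter windows were cut from RefSeq sequence of GRCm38.p6.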

Additional observations from a re-analysis of the deposited data

Results flagged for a closer look

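Tsc22d3 in control replicate 1 of the 1st set stood at 13.2 CPM, far from the other 3 controls at 28.4 to 30.7 CPM. Chance marks about 1 group in 20 in this way, and groups of 3 were not examined. Nr3c1 was above its control mean in every 10 mg/kg library (log2 fold change 0.14) and below it in every 3 mg/kg library (-0.48). Ddit4 was likewise above in every 10 mg/kg library (0.52) and below in every 3 mg/kg library (-0.09). The difference between the doses was not tested for either gene.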

How the results depend on the processing

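At 3 mg/kg 0 genes passed, against 19 with the DESeq2 Wald test, 2 with limma on log2(FPKM + 1), 9 with a separate fit within each set and 0 to 2 with 1 library left out. Of the 9 genes 0 passed, against 1 with a separate fit (Hif3a, adjusted p = 0.0233). At 10 mg/kg 112 genes passed, against 291 with DESeq2, 69 with at least 1 CPM in every library, 4 with a separate fit, 5 with the replicate block and 21 to 138 with 1 library left out (21 without control replicate 3 of the 2nd set). Of the 9 genes 1 passed there, against 2 with DESeq2, 0 with a separate fit and 1 to 3 with 1 library left out (3 without exposed replicate 2). The separate fit thus did not call Hif3a. Nothing is read from these counts of the 9 genes, since the values at 10 mg/kg chose them. Hif3a at 10 mg/kg was 0.77 on the log2(FPKM + 1) scale, where the pseudocount lowers the change of a low gene. Between the controls 3364 genes passed, against 1474 with the replicate block and 1340 to 4073 with 1 library left out. Of the 9 genes 2 passed, against 2 to 4 with 1 library left out (4 without control replicate 1 of the 2nd set). Of the 24 further targets 0 passed at 3 mg/kg, against 1 with DESeq2. At 10 mg/kg 4 passed, against 10 with DESeq2, 2 with at least 1 CPM, 2 with limma on log2(FPKM + 1), 1 with a separate fit, 0 with the replicate block and 1 to 7 with 1 library left out. Named genes called at 10 mg/kg that missed the threshold with the block were Plin4 (edgeR adjusted p = 0.0505), Cebpd (0.183), Map3k6 (0.254), Plekhf1 (0.290), Slc2a1 (0.0871), Btg2 (0.317), Nr1d1 (0.0960), Acer2 (0.0666), Galnt15 (0.0871) and Ifi30 (0.169), and with a separate fit Cebpd (0.189), Map3k6 (0.114), Plekhf1 (0.394), Galnt15 (0.120) and Ifi30 (0.179), besides those given above. Acer2, Galnt15 and Ifi30 were picked for likeness to Hif3a over all libraries, those at 10 mg/kg among them. Their calls are therefore given as descriptions, from which nothing is read. Separate fits and the block leave fewer residual degrees of freedom. The separate fit nevertheless called more genes at 3 mg/kg (9 against 0) and fewer at 10 mg/kg (4 against 112). The cause of these differences was not tested.

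Sign changes were met in values near 0. At 3 mg/kg Per1 was -0.05 with the replicate block. Leaving out 1 library gave -0.01 to 0.22 for Sgk1, -0.32 to 0.47 for Tsc22d3, -0.07 to 0.21 for Per1 and -0.11 to 0.01 for Cdkn1a. Between the controls, Fkbp5 was -0.00 and -0.01 with limma, Sgk1 0.04 without a filter, Per1 0.00 with RLE factors, 0.00 with DESeq2 and 0.05 without a filter, and Ddit4 -0.03 with at least 1 CPM and -0.06 and -0.06 with limma. Leaving out 1 library there gave -0.08 to 0.04 for Sgk1, -0.19 to 0.17 for Per1 and -0.11 to 0.12 for Ddit4. At 10 mg/kg leaving out 1 library gave -0.15 to 0.41 for Fkbp5, -0.20 to 0.09 for Per1 and -0.02 to 0.46 for Nr3c1. The cause of these changes was not tested. Exposed and control libraries of a set with the same replicate number had deviations with r of -0.341 to 0.134 (6 pairs). Those with other numbers had -0.377 to 0.455 (15 pairs). So few pairs cannot show whether a shared number stands for anything shared in handling, which the labels do not say. Hif3a rests on 31 to 37 counts in each control of the 2nd set, the fewest of any value of the 9 genes.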
